A study of Mus musculus with 4 samples.

Results

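The 9 genes described here encode the enzymes, transporters and a coactivator by which the liver makes, stores and releases glucose: Pck1, G6pc, Slc37a4, Fbp1, Pcx, Pklr, Ppargc1a, Slc2a2 and Gys2. They were chosen by name, with earlier results of these data known. Every array probe whose platform gene symbol was one of these names was used, which gave 13 of 25697 probes and 9 of 16593 genes with a symbol. In mice with ROCK1 knocked out (KO) in the liver, Pck1 was 2.20-fold lower and Slc37a4 1.98-fold lower than in the livers of control mice. None of the other 7 genes, G6pc included, passed the test in either direction.

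Liver RNA came from mice with a liver-specific ROCK1 KO and from control mice, with 2 Illumina single-colour bead arrays per genotype. ROCK1 is a serine/threonine kinase of the actomyosin cytoskeleton. Both groups had eaten normal chow for 16 weeks with free access to it. Strain, sex, age, the promoter that drove the deletion, the alleles of the control mice, and the feeding state and hour at which livers were taken are not stated in the labels. Whether each array represents its own animal is not stated, so p-values here reflect array-to-array spread, which may be technical. Levels are log2(intensity + 16) after quantile normalisation, called normalised log2 intensity, with the background signal left in. A difference is KO minus control on that scale, from limma fitted over all probes, and a probe was called at a Benjamini-Hochberg adjusted p under 0.05 over all 25697 probes.

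Gluconeogenesis makes glucose from lactate, amino acids and glycerol, and in the liver it maintains blood glucose between meals. Pyruvate carboxylase (Pcx) and phosphoenolpyruvate carboxykinase (Pck1) bypass the irreversible pyruvate kinase step (Pklr), fructose bisphosphatase (Fbp1) bypasses phosphofructokinase, and glucose 6-phosphatase (G6pc) acts inside the endoplasmic reticulum on substrate carried there by Slc37a4. Glucagon acts on the liver through cAMP and raises transcription of Pck1, G6pc and Ppargc1a, while insulin lowers it.

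The stretches of 250 bases just upstream of a start of 4 of these genes are shown. The reason is that the cAMP response element, a site bound by CREB factors, is the classic glucagon-responsive element of Pck1. The sequences are from RefSeq, assembly GRCm38.p6, and run 5′ to 3′ on the gene's own strand. Capitals mark the core of that element, TGACGT or, on the other strand, ACGTCA. The Pck1 window is chr2:173152823-173153072 on the plus strand, and the annotated gene begins at 173153070, just inside its end. Slc37a4 lies downstream of chr9:44396696-44396945 on the plus strand. The windows of Ppargc1a and G6pc are chr5:51567726-51567975 on the minus strand and chr11:101367466-101367715 on the plus strand.
Pck1: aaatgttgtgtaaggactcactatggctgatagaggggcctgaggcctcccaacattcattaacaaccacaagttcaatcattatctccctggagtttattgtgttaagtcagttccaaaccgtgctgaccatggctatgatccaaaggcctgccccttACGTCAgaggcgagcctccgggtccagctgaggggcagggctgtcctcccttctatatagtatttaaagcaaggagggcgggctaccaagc
Slc37a4: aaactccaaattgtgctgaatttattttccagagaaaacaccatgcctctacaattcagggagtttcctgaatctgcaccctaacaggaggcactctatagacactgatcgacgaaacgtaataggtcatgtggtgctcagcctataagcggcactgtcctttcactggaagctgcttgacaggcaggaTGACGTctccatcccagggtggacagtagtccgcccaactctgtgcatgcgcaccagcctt
Ppargc1a: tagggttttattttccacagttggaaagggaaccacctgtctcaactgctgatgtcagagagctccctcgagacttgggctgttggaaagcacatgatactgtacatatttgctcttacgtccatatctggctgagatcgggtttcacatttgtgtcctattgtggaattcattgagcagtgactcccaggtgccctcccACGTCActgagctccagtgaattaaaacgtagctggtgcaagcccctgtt
G6pc: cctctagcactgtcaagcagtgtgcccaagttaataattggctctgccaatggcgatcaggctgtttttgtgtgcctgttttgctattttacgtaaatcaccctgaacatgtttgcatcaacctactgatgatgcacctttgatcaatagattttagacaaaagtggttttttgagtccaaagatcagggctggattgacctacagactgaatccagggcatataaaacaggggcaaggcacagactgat

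The core began 91 bases before the start to which the Pck1 window belongs and 61 bases before the start of Slc37a4. In Ppargc1a it began 50 bases before the start to which its window belongs, and the G6pc window held none. Only exact letters were searched, for this core and for the sites below. A stretch such as ttacgtaa in the G6pc window, with other letters beside ACGT, was therefore not counted, and the search does not show that G6pc lacks such elements. The table has 1 window for Ppargc1a, which lies inside the annotated gene (chr5:51454249-52115853), so the gene has at least 1 other start farther upstream. Slc37a4 has 3 such windows for its different starts, and 2 of them held the core. Of the 12 windows of 8 of these genes, 4 held it, against 6.47% of all 32851 windows of this length. A forkhead site, TGTTTAC or GTAAACA, was in 0 of the 12 windows and in 3.17% of all. An E-box, CACGTG, was in 1, upstream of Pcx, and in 6.02% of all. The E-box and the core of the cAMP response element share the letters ACGT but differ in the letters beside them, so no match was counted for both. Both called genes, Pck1 and Slc37a4, had the cAMP response element core, and so did Ppargc1a, which was not called. Whether the core has a part in any difference described here was not tested.

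On the arrays as a whole, 8.02% of the probes were called (2060 of 25697), with 4.32% of all probes lower and 3.69% higher in KO. Of the 9587 probes that exceeded the background limit given below on 2 or more arrays, 10.2% were lower and 8.14% higher in KO. The number of called probes fell to 821 without control replicate 1 and to 800 without control replicate 2. The arrays of the genotypes did not overlap for 51.9% of all probes, so a lack of overlap alone is common here. Rock1, the targeted gene, read 8.06 and 7.91 in KO livers and 8.51 and 8.51 in control livers (difference -0.53, adjusted p = 0.0181), and it stayed called only when KO replicate 1 was left out (adjusted p = 0.0221, against 0.0911 to 0.0995 without another array). The deleted part of Rock1 and the place of this probe in the gene were not analysed here. The most frequent raw intensity, that of the background, was 180.0 and 181 on the KO arrays and 128 and 124 on the control arrays. A probe counted as above background over a normalised log2 intensity of 7.85, set at the mode plus 3 SD.

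Of the 13 probes, 2 were called lower in KO and 0 higher, and 11 were not called. At an unadjusted p under 0.05 in limma, 1 further probe passed, that of Fbp1, and it was higher. With it 3 of the 13 probes passed that looser threshold, a share close to the 22% of all probes that did. For 4 of the 13 probes the arrays of the genotypes did not overlap, with 3 lower in KO (Pck1, Slc37a4 and Pcx) and 1 higher (Fbp1). Of all probes, 51.9% did not overlap, so nothing is read from this count. The median difference over the 13 probes was -0.16, beside 0.00 over all probes. By their brightest probes, 2 of the 9 genes were called lower, and the share of all genes so called was 4.63% for lower and 4.2% for higher. Each of these brightest probes was above background on at least 2 arrays, and of all such probes 10.2% were called lower and 8.14% higher. As the 9 genes were chosen with earlier results of these data known, these shares are a description. Of the 13 probes, 11 were above background on at least 2 arrays and 10 on all 4. The plot of normalised intensities by array shows every probe of the 9 genes.

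**Figure D1:**
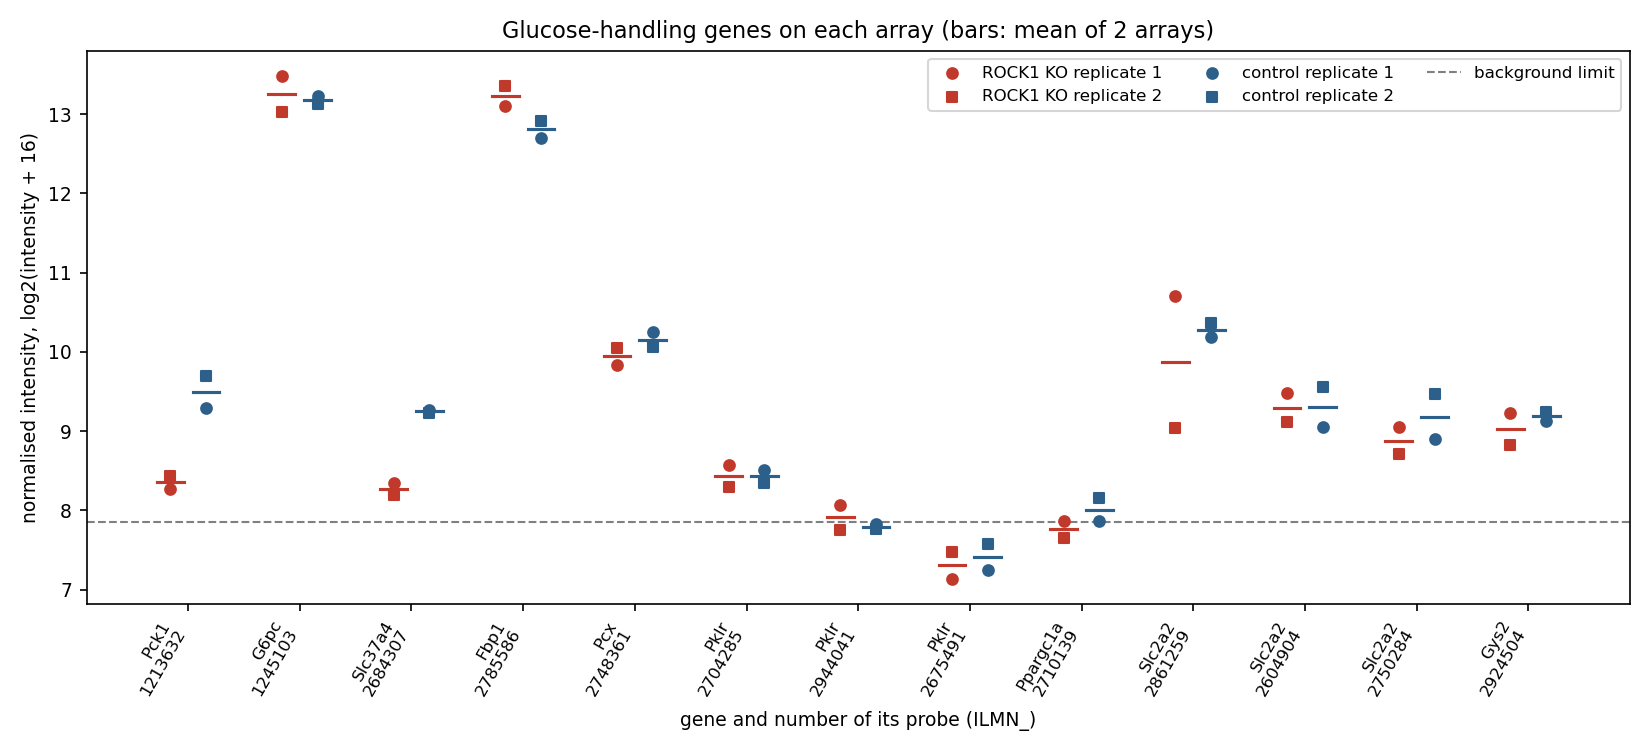
Normalised log2 intensity of the 13 probes of the 9 genes on each array, with ROCK1 KO left of control for each probe. Points are arrays, bars are means of 2 arrays, and the dashed line is the background limit of 7.85. The arrays of the genotypes are far apart for Pck1 and Slc37a4, and the KO arrays of the Slc2a2 probe ILMN_2861259 lie at 10.70 and 9.04.

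Pck1, the cytosolic phosphoenolpyruvate carboxykinase gene and a main site of hormonal control of gluconeogenesis, was read by 1 probe (ILMN_1213632). Its normalised log2 intensity was 8.27 and 8.43 in KO livers, against 9.29 and 9.69 in control livers. Both KO arrays lay below both control arrays by more than the spread within either genotype. The difference was -1.14 (SE 0.16, 95% interval -1.49 to -0.79, 2.20-fold lower, adjusted p = 0.00162). The raw intensities, 336 and 371 in KO livers and 615 and 598 in control livers, also did not overlap, although the KO arrays had the higher background. In bulk liver, fewer cells that express a gene and less RNA per cell cannot be told apart. Pck1 was called in each of 15 alternatives, with differences of -1.50 to -0.95 and a highest adjusted p of 0.0228, that without control replicate 2. With normexp background correction the fall was 2.81-fold. Pck2, the mitochondrial isoenzyme gene, was not above background on any array.

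The genes whose pattern over the 4 arrays was most like that of Pck1 were Kti12, Txn1 and Ebpl. The measure was the root mean square distance between array values after each probe's mean was removed, over 9034 candidate probes, and it was 0.060 for Kti12, 0.061 for Txn1 and 0.064 for Ebpl. Txn1, the thioredoxin gene, read 9.27 and 9.33 in KO livers, against 10.22 and 10.75 in control livers. As these genes were picked for this pattern, their values are a description.

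Slc37a4, the gene of the transporter that brings glucose 6-phosphate into the endoplasmic reticulum, was read by 1 probe (ILMN_2684307). It read 8.34 and 8.19 in KO livers, against 9.27 and 9.24 in control livers. The control arrays were nearly equal, and both KO arrays lay well below them. The difference was -0.98 (SE 0.13, 95% interval -1.27 to -0.70, 1.98-fold lower, adjusted p = 0.00129). The raw intensities were 352 and 314 in KO livers and 602 and 434 in control livers. It too was called in each of 15 alternatives, from -1.33 to -0.91, with a highest adjusted p of 0.0180, and with normexp background correction the fall was 2.52-fold.

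G6pc, the catalytic subunit gene of glucose 6-phosphatase and the functional partner of Slc37a4, read 13.48 and 13.03 in KO livers and 13.23 and 13.13 in control livers (ILMN_1245103). The KO arrays spanned the control arrays. The difference was 0.07 (SE 0.16, 95% interval -0.27 to 0.42, adjusted p = 0.837), and it was -0.15 without KO replicate 1 and 0.30 without KO replicate 2, not called in either. That interval holds no fall of the size measured for Slc37a4. G6pc3, a paralogue of wide expression, was above background on 1 of the 4 arrays.

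Fbp1, the liver fructose bisphosphatase gene, read 13.10 and 13.36 in KO livers, against 12.70 and 12.92 in control livers (ILMN_2785586). Both KO arrays were above both control arrays. The difference was 0.42 (SE 0.14, 95% interval 0.10 to 0.74, 1.34-fold), with an adjusted p of 0.109 in limma (0.0144 before adjustment), so it was not called. It was positive and not called in each of 15 alternatives, and it ran from 0.28 to 0.56 when 1 array was left out. Pcx, the pyruvate carboxylase gene, which feeds oxaloacetate to Pck1, read 9.84 and 10.05 in KO livers and 10.25 and 10.06 in control livers (ILMN_2748361). Its nearest KO and control arrays were 10.05 and 10.06, and the difference was -0.21 (SE 0.16, 95% interval -0.56 to 0.14, adjusted p = 0.487). The raw Pcx intensities overlapped, at 1031 and 1150.5 in KO livers and 1246 and 758 in control livers.

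**Figure D2:**
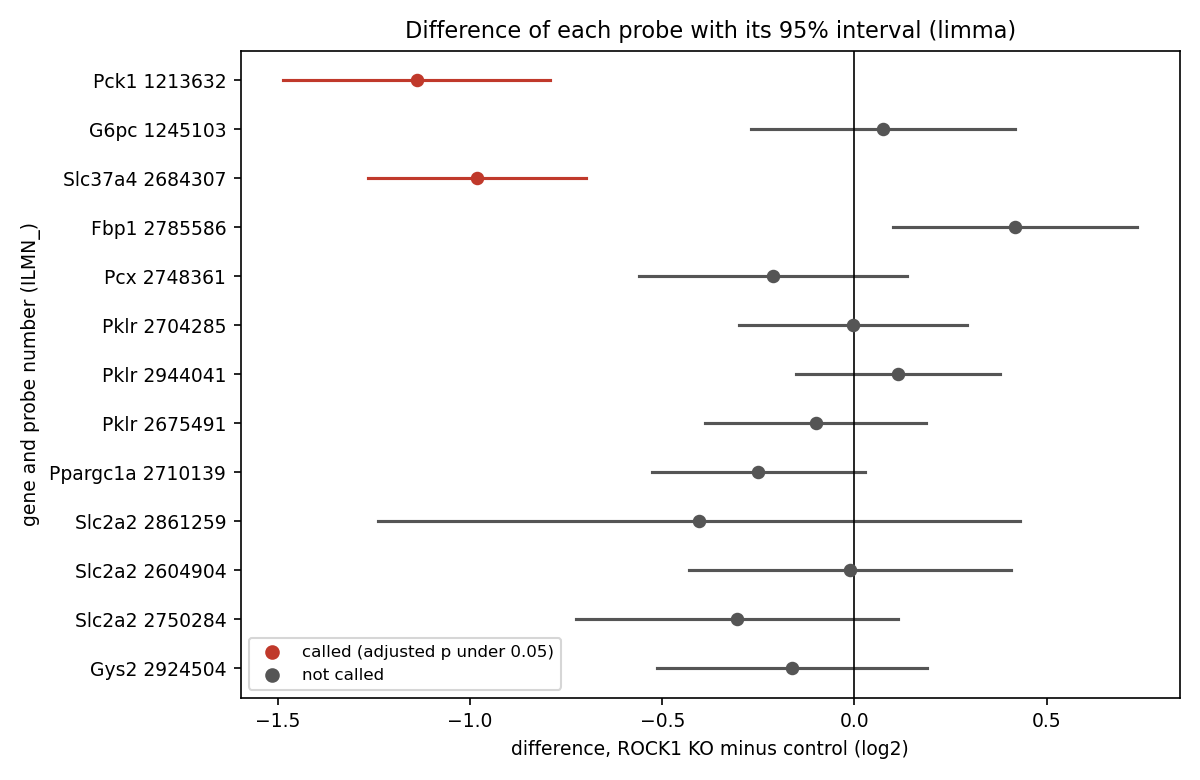
Difference of each of the 13 probes, ROCK1 KO minus control on the log2 scale, as points with the 95% interval of the limma fit. The intervals of Pck1 (-1.49 to -0.79) and Slc37a4 (-1.27 to -0.70) are the ones called, and that of Fbp1 (0.10 to 0.74) excludes 0 before adjustment only.

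Pklr, the liver pyruvate kinase gene of glycolysis, was read by 3 probes. The brightest (ILMN_2704285) read 8.57 and 8.29 in KO livers and 8.52 and 8.35 in control livers, and its control arrays lay between the KO arrays. Its difference was -0.00 (SE 0.14, 95% interval -0.30 to 0.29, adjusted p = 0.993). ILMN_2944041 was above background only on KO replicate 1 and read 8.07 and 7.75 in KO livers, against 7.83 and 7.76 in control livers (difference 0.11, adjusted p = 0.644). ILMN_2675491 was not above background on any array, and its values carry no fold. None of the Pklr probes was called in any alternative.

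Slc2a2, the gene of GLUT2, the main glucose carrier of the hepatocyte surface, was also read by 3 probes, and they differed among themselves. ILMN_2861259 read 10.70 and 9.04 in KO livers, against 10.19 and 10.37 in control livers. The KO arrays lay on either side of the control arrays, with an SD of 1.17 in KO and 0.13 in control (n = 2 each). The difference was -0.40 (SE 0.38, 95% interval -1.24 to 0.43, adjusted p = 0.595). Without KO replicate 1 it was -1.23 and called (adjusted p = 0.00174), and without KO replicate 2 it was 0.42 and not called (adjusted p = 0.260), so 1 array decided its direction. ILMN_2604904 read 9.48 and 9.11 in KO livers and 9.05 and 9.56 in control livers (difference -0.01, 95% interval -0.43 to 0.41, adjusted p = 0.982). ILMN_2750284 read 9.05 and 8.71 in KO livers and 8.90 and 9.46 in control livers (difference -0.30, 95% interval -0.72 to 0.11, adjusted p = 0.393). The gap between the KO arrays was thus far wider on ILMN_2861259 than on the other Slc2a2 probes. The mean of the 3 probes gave -0.24 (adjusted p = 0.634).

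Gys2, the liver glycogen synthase gene, read 9.23 and 8.82 in KO livers and 9.12 and 9.25 in control livers (ILMN_2924504). KO replicate 1 lay between the control arrays, and the difference was -0.16 (SE 0.16, 95% interval -0.51 to 0.19, adjusted p = 0.615). It was -0.36 without KO replicate 1 and 0.04 without KO replicate 2, not called in either. Ppargc1a, which encodes PGC-1α, a coactivator that raises transcription of Pck1 and G6pc in fasting, read 7.87 and 7.65 in KO livers, against 7.87 and 8.16 in control livers (ILMN_2710139). It was above background on 1 KO array and both control arrays, so these values lie close to the limit of the array. The difference was -0.25 (SE 0.13, 95% interval -0.53 to 0.03, adjusted p = 0.279), negative in each of 15 alternatives and called in 0 of them.

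**Figure D3:**
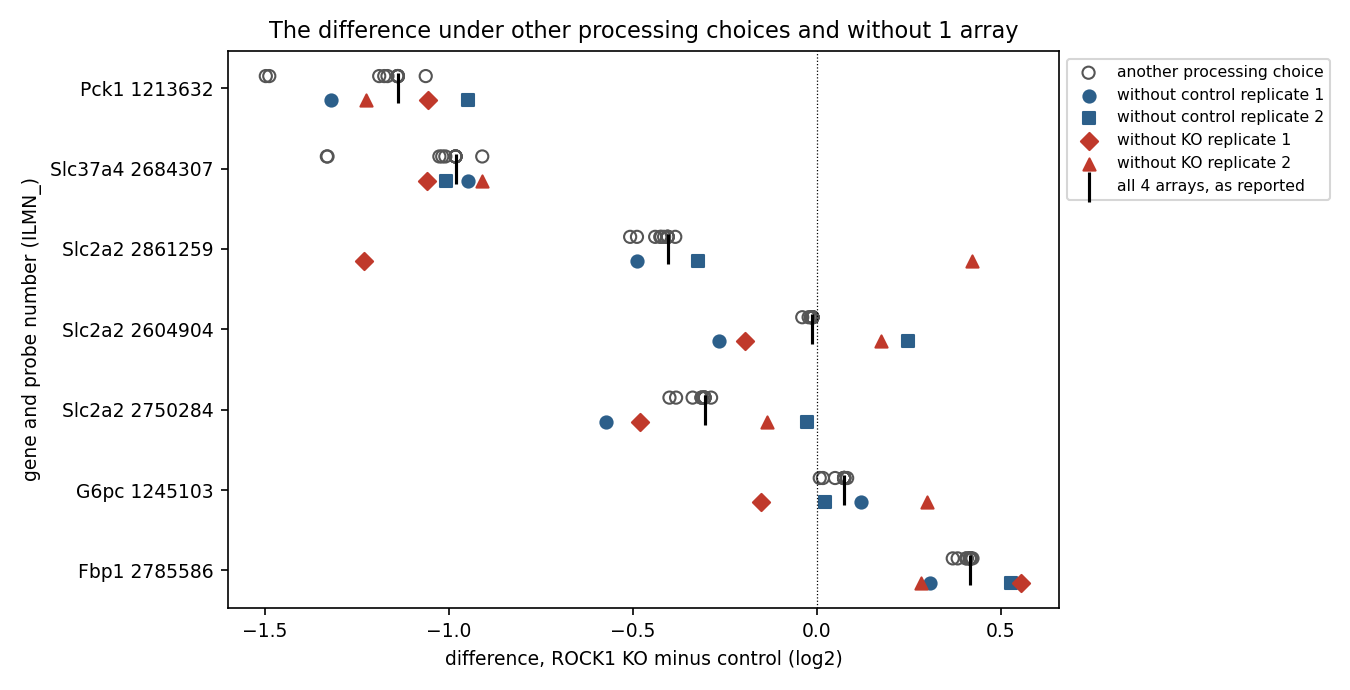
Difference, ROCK1 KO minus control on the log2 scale, of 7 probes under other processing choices (open circles) and with 1 array left out (filled symbols), beside the value from all 4 arrays (black bar). Pck1 stays between -1.50 and -0.95 and Slc37a4 between -1.33 and -0.91, while the Slc2a2 probe ILMN_2861259 moves between -1.23 without KO replicate 1 and 0.42 without KO replicate 2.

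Around these 9 genes, 149 other genes of 6 lists of glucose metabolism and its control were measured, each by its brightest probe. In KO, 9 of them were called higher and 10 lower, and 130 were not called. That is 6.04% higher and 6.71% lower, beside 4.2% and 4.63% of all genes. Of the 149, 96 were above background on at least 2 arrays, and such probes are called more often (8.14% higher and 10.2% lower). The median difference was -0.00, as over all genes. With scaling to the 75th percentile in place of quantile normalisation, the calls split into 15 higher and 11 lower. Without control replicate 1 they were 8 higher and 4 lower, without control replicate 2 they were 6 and 4, and without KO replicate 2 they were 5 and 8. Of the 149, 48 were below background on every array, so a change in them could not be read.

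Among 23 genes of the enzymes of glycolysis and gluconeogenesis, 1 was called higher, 0 were called lower and the median was 0.02. The called gene was Ldha, a lactate dehydrogenase subunit gene, which read 14.27 and 14.34 in KO livers, against 13.89 and 13.74 in control livers (difference 0.49, SE 0.11, adjusted p = 0.0208). At an unadjusted p under 0.05 in limma, 4 of these 23 genes were higher and 3 lower, beside 12.4% and 10.9% of all genes, so nothing is read from these counts. Tkfc, which encodes triokinase of fructose breakdown, read 11.56 and 11.95 in KO livers and 11.44 and 10.18 in control livers and was not called (0.95, adjusted p = 0.0953). Gckr, the gene of a regulatory protein of hepatic glucose use, was not called (0.12, adjusted p = 0.723).

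Of 23 genes that bring carbon in from pyruvate, amino acids and glycerol or move it across the mitochondrial membrane, 1 was called higher and 1 lower, with a median of 0.04. Slc25a1, the mitochondrial citrate carrier gene, read 11.80 and 11.59 in KO livers, against 10.86 and 10.73 in control livers (0.90, SE 0.16, adjusted p = 0.00593). Its other probe above background gave 0.23. Mdh1, the cytosolic malate dehydrogenase gene, read 9.13 and 9.13 in KO livers, against 9.59 and 9.81 in control livers (-0.57, SE 0.15, adjusted p = 0.0363), with -0.31 on another probe. The pyruvate dehydrogenase kinase gene Pdk4 (0.64, adjusted p = 0.0764) and the aminotransferase genes Got1 (0.52, adjusted p = 0.0628) and Gpt (0.54, adjusted p = 0.141) were not called. They are named by a rule that required arrays that did not overlap, so that trait adds nothing for them. Gpd2, the mitochondrial glycerol phosphate dehydrogenase gene, was not called (-0.54, adjusted p = 0.0978) and gave -1.14 on its other probe.

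Of 20 genes of glycogen metabolism, 1 was called higher and 1 lower, with a median of 0.07. Pgm1, a phosphoglucomutase gene, read 11.22 and 11.67 in KO livers, against 12.14 and 12.16 in control livers (-0.71, SE 0.17, adjusted p = 0.0286). Gaa, the lysosomal glucosidase gene that degrades glycogen, read 10.45 and 10.72 in KO livers, against 9.81 and 9.97 in control livers (0.70, SE 0.16, adjusted p = 0.0231). Pygl, the liver glycogen phosphorylase gene, was not called (-0.13, adjusted p = 0.595). Ppp1r3c, which encodes a subunit that targets a phosphatase to glycogen, was not called (0.54, adjusted p = 0.156). None of 9 genes of side routes from glucose 6-phosphate and none of 12 glucose transporter genes was called, and the medians were 0.07 and 0.02. At an unadjusted p under 0.05 in limma, 3 of the 9 side-route genes were higher and 0 lower, and 1 of the 12 transporter genes was higher and 1 lower, beside the same 12.4% and 10.9% of all genes. Tkt, the transketolase gene, was not called (0.53, adjusted p = 0.0980). Of the 12 transporter genes, 3 were above background on at least 2 arrays.

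**Figure D4:**
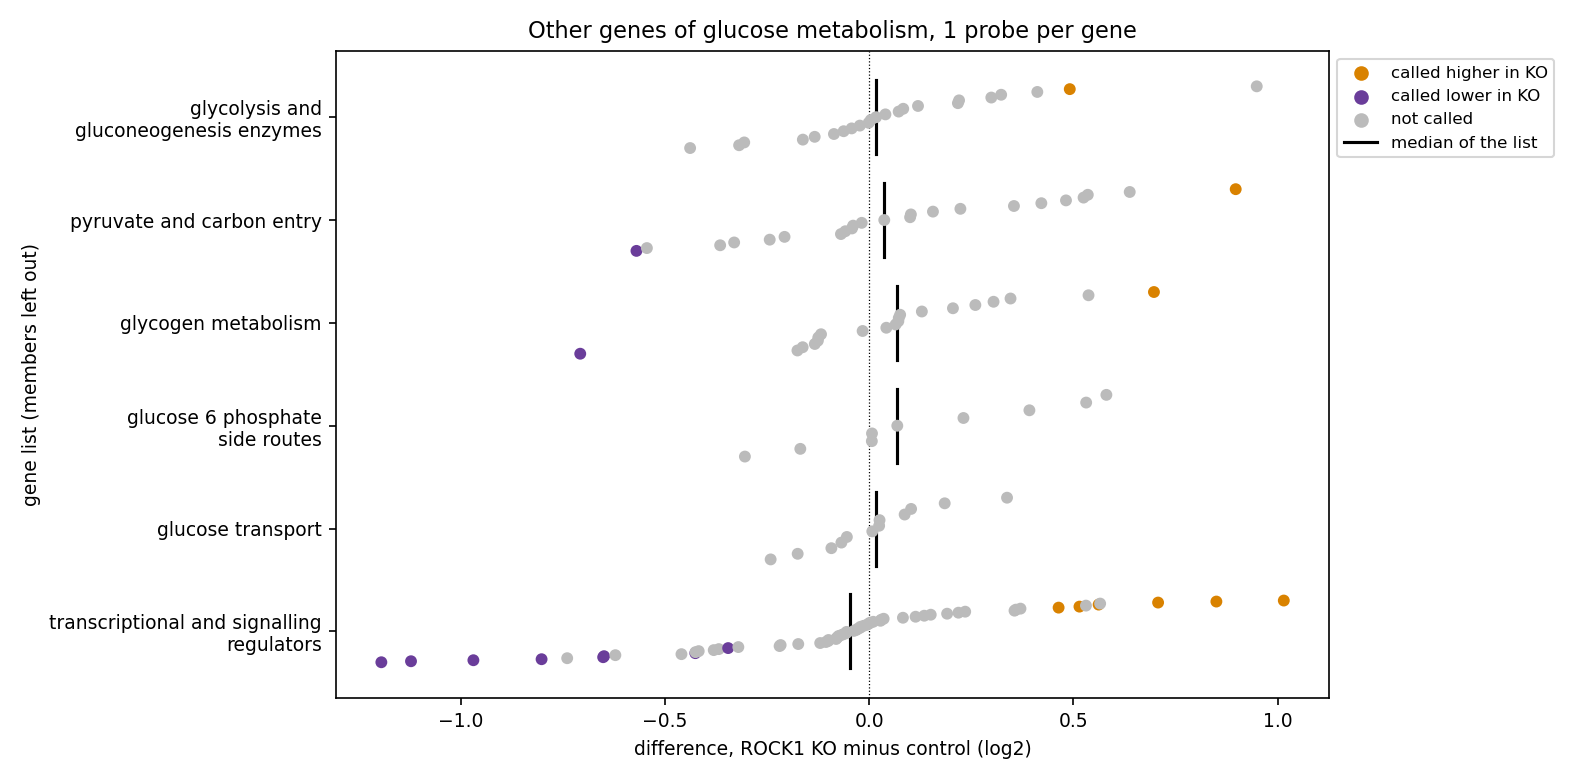
Difference of each of the 149 other genes, ROCK1 KO minus control on the log2 scale, by list, with 1 probe per gene. Orange points were called higher in KO, purple points lower, grey points neither, and black bars are list medians, which lie between -0.05 and 0.07.

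The list of 62 transcriptional and signalling regulators held 14 of the 19 calls, 6 higher (9.68%) and 8 lower (12.9%), with a median of -0.05. Of all genes, 4.2% were called higher and 4.63% lower. Above background on at least 2 arrays were 40 of the 62, and of all such probes 8.14% were called higher and 10.2% lower. On the side of the hormones, Gcgr, the glucagon receptor gene, read 9.51 and 9.69 in KO livers, against 10.68 and 10.46 in control livers (-0.97, SE 0.16, 1.96-fold lower, adjusted p = 0.00402). Igfbp1, an insulin-repressed gene of a secreted binding protein, was not above background on either KO array and read 8.68 and 8.14 in control livers, which makes it at least 1.47-fold lower in KO (adjusted p = 0.00207). Irs1, which encodes a substrate of the insulin receptor, read 8.21 and 8.37 in KO livers and was not above background on either control array, at least 1.35-fold higher in KO (adjusted p = 0.00300). Such a bound sets the bright genotype's mean against the lowest value above the background limit. Sik1, the gene of a kinase that holds CRTC coactivators in the cytoplasm, was not above background on either KO array and read 8.01 and 8.22 in control livers, at least 1.20-fold lower in KO (adjusted p = 0.00151). Akt2, a kinase gene of insulin signalling, and Pde4b, a cAMP phosphodiesterase gene, were called higher and lower, yet Akt2 was above background on 1 array and Pde4b on none. The protein kinase genes Prkaca (0.57, adjusted p = 0.0673) and Prkaa2 (-0.74, adjusted p = 0.0510) were not called. Their other probes above background gave 0.55 for Prkaca and -0.05 for Prkaa2.

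Among transcription factor genes of the liver, Cebpa, a regulator of hepatic metabolic genes, read 9.81 and 10.09 in KO livers, against 8.87 and 8.99 in control livers (1.02, SE 0.15, 2.02-fold higher, adjusted p = 0.00246). Foxa3, a forkhead gene of the liver, read 12.76 and 12.68 in KO livers, against 13.24 and 13.50 in control livers (-0.65, SE 0.14, adjusted p = 0.0151), and its relative Foxa1 was also lower in KO (-0.65, SE 0.16, adjusted p = 0.0264). Atf4, the gene of a stress-responsive factor, read 8.18 and 9.60 in KO livers, against 10.05 and 10.12 in control livers (-1.19, SE 0.33, adjusted p = 0.0495). Its KO arrays were far apart, and the difference ran from -1.92 to -0.48 when 1 array was left out. Onecut1 was called lower (adjusted p = 0.0457) but was above background on 1 control array only, and its bound is 1.00-fold. Hnf4a, the gene of a nuclear receptor that maintains hepatocyte identity, was not called (-0.62, adjusted p = 0.0540).

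Of the clock genes on the list, Nr1d1, which encodes the repressor REV-ERBα, read 8.93 and 9.40 in KO livers, against 8.16 and 8.47 in control livers (0.85, SE 0.17, adjusted p = 0.0119). Per2 was called higher (0.56, SE 0.15, adjusted p = 0.0465). Ppargc1b, which encodes a coactivator related to PGC-1α, was called higher (0.51, SE 0.12, adjusted p = 0.0278), and Esrra, the gene of a nuclear receptor partner of both coactivators, was not (0.53, adjusted p = 0.0620). Foxo1, the gene of a forkhead factor inhibited by insulin, was not called (0.15, adjusted p = 0.590). Crtc2, a CREB coactivator gene, and Nr3c1, the glucocorticoid receptor gene, were not above background on any array.

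Of the 19 called genes, Cebpa, Sik1, Igfbp1 and Irs1 were called again with any 1 array left out. Gcgr (adjusted p = 0.0562) and Nr1d1 (adjusted p = 0.124) were lost only without control replicate 1, and Slc25a1 (adjusted p = 0.0646) and Foxa3 (adjusted p = 0.127) only without control replicate 2. Pgm1 and Atf4 were kept only without KO replicate 2, Gaa, Foxa1 and Per2 only without KO replicate 1, and Onecut1 only without control replicate 1. Ldha was lost when replicate 2 of either genotype was left out, and Akt2 without control replicate 2 or KO replicate 1. Mdh1, Ppargc1b and Pde4b were lost without any 1 of the 4 arrays. The highest adjusted p of these 11 ran from 0.111 to 0.259.

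**Figure D5:**
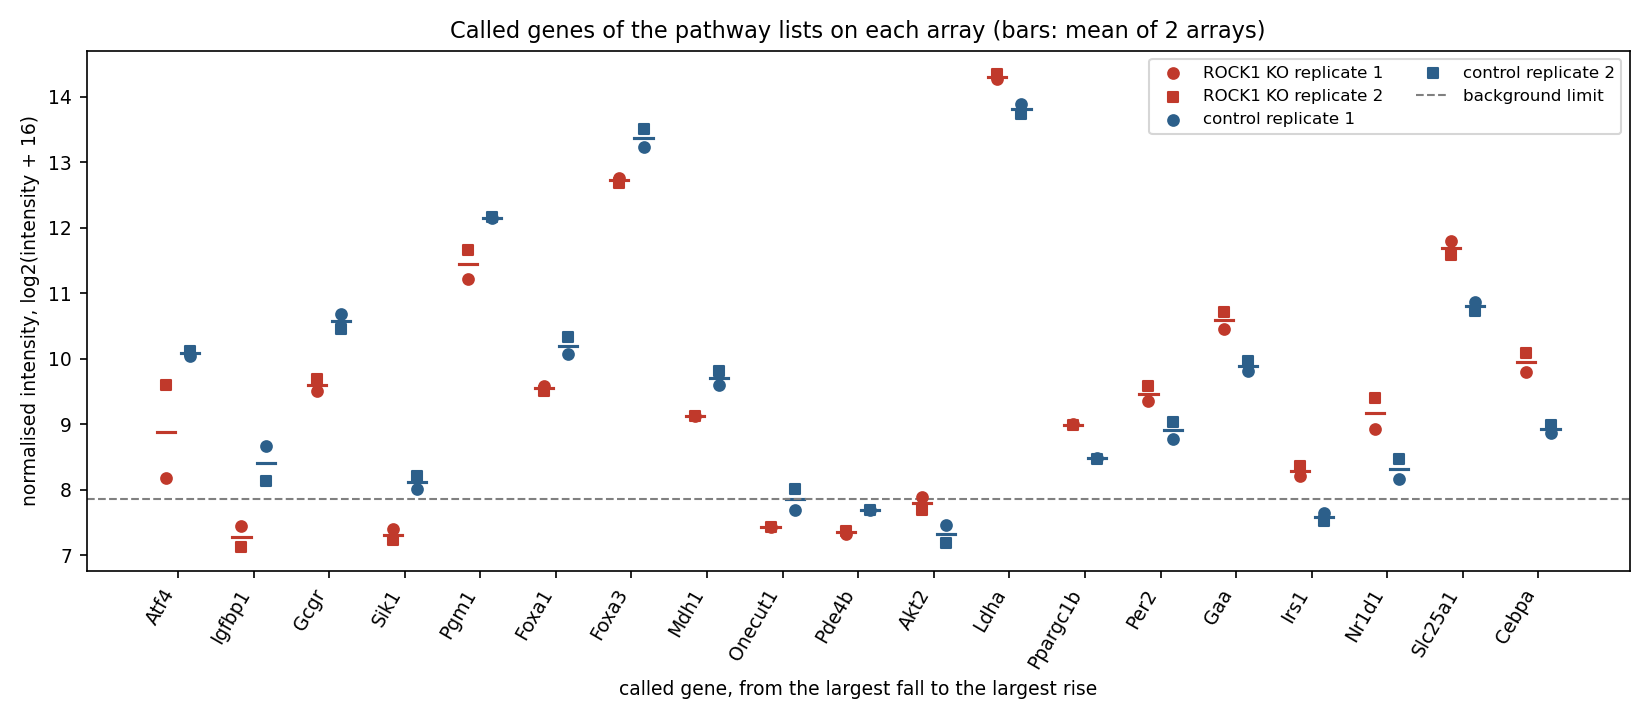
Normalised log2 intensity of the 19 called genes of the 6 lists on each array, from the largest fall to the largest rise, with ROCK1 KO left of control and bars at the mean of 2 arrays. The dashed line is the background limit of 7.85, below which all 4 arrays of Pde4b lie, and the KO arrays of Atf4 lie apart at 8.18 and 9.60.

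Markers of liver cell types were read on the same arrays. Of 11 hepatocyte markers, 10 exceeded the background limit on 2 or more arrays, and 2 were called lower (Serpina1a and Fah) and none higher (4 lower and 2 higher at an unadjusted p under 0.05 in limma), and the 8 without a probe near saturation (Apoa1, Ttr and Cyp2e1 left out) had a summed normalised intensity of 131853 and 125279 in KO livers and 125158 and 156856 in control livers. The Alb probe was above background on 1 of the 4 arrays. Of 8 periportal markers, Ass1 was called higher and Pck1, itself on that list, lower. The sum of the 8 was 124300 and 122828 in KO livers and 89544 and 110221 in control livers. Their median difference was -0.05, so that higher sum does not describe the list as a whole. Bright probes weigh most in a sum, among them Ass1 (difference 1.29). Of 9 pericentral markers, Cyp1a2, Oat, Axin2 and Gulo were called higher and Glul and Rgn lower, with a sum, Cyp2e1 left out, of 58739.7 and 62646 in KO livers and 38897 and 42023 in control livers. Of 9 Kupffer cell and macrophage markers, Clec4f (-0.63) and Adgre1 (-0.84) were called lower. Another probe above background gave -0.12 for Clec4f and -0.30 for Adgre1. The sum of the 9 was 4902 and 4746 in KO livers and 6183 and 5256 in control livers. Likewise, Cyp1a2 (0.46) gave -0.02 on another probe above background, while Serpina1a (-1.82) gave -1.63. Of 8 endothelial markers, Clec4g was called lower, with a sum of 7494 and 6834 in KO livers and 12684 and 11160 in control livers, and the sum of the other 7 was 2190.2 and 2393 in KO livers and 2687 and 2508 in control livers. Single calls were made for cholangiocyte (Sox9 higher), stellate (Col3a1 lower), lymphocyte (Ms4a1 higher) and pancreas (Amy2a5 lower) markers. Col3a1 was not above background on either KO array, and Ms4a1 was above it on 1 of the 4 arrays. The sum of the 9 stellate and fibroblast markers was 11652 and 11083 in KO livers and 14212 and 12318 in control livers. At an unadjusted p under 0.05 in limma, 3 Kupffer cell and macrophage, 2 endothelial and 3 stellate markers were lower and 0 higher. Of periportal markers 1 was lower and 3 higher, and of pericentral markers 3 and 4. Of all genes, 10.9% were lower and 12.4% higher at that threshold, and 4.63% and 4.2% were called. None of 3 erythroid, 6 adipocyte or 6 kidney tubule markers was called (1 kidney marker at an unadjusted p under 0.05 in limma). Their part in the differences of Pck1 and Slc37a4 was not tested.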

How the data were processed

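Liver RNA on 4 arrays was labelled with Cy3-streptavidin, per the labels. The deposited intensities are linear values for each probe with no background subtracted and no detection p-values, per the file headers and values. The authors' deposited log2 values keep the probe order of each array (rank correlation 1), with medians of 7.629, 7.628, 7.632 and 7.631 (KO, KO, control, control). They are not centred by gene, and their reference distribution and the scanner software, slide and scan date are not given in the sources used here.

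Intensities were quantile-normalised, 16 was added and log2 taken. Two-sided tests came from limma 3.58.1 run in R 4.3.3, over all probes with Benjamini-Hochberg adjustment. They used lmFit and eBayes, with a trend on intensity and no block. A run on simulated data was also made, but its outcome is not reported here and nothing is read from it. The number of arrays limits the precision. Gene symbols came from the platform annotation: 1 symbol was found for 23978 probes, several for 0 and none for 1719. A match to RefSeq GRCm38.p6 through gene identifiers covered 23962 probes and changed 0 symbols. Probe positions were not analysed here.

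The members and the gene lists were chosen with earlier results of these data known. Named genes were every probe of the members and, of the lists, called genes, genes with a difference of 0.5 or more whose arrays did not overlap, and Gckr, Pygl, Foxo1, Crtc2, Hnf4a, Nr3c1 and Igfbp1, while other genes of that rule are not reported here. Of the marker lists, called genes were named. Alb, the saturated markers, Pck2 and G6pc3 lie outside this rule and were chosen after their values were seen. Alternatives covered the offset, background correction, normalisation, the deposited log2 values, the replicate block, a filter on dim probes, the variance model, each array left out and the threshold. Figures were drawn with matplotlib 3.10.9 in Python 3.11.15.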

Additional observations from a re-analysis of the deposited data

How the results depend on the processing

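Pck1 and Slc37a4 were called lower in each of the alternatives tried, and no member probe was called higher in any. Without KO replicate 1 the count of lower member probes was 3, with the Slc2a2 probe ILMN_2861259 added. In a fit with 1 array left out, the lone array of a genotype is assumed to vary like the other genotype's. Of all probes, 800 to 1679 were then called, against 2060 with all arrays, and of the 149 other genes of glucose metabolism 5 to 9 were higher and 4 to 8 lower, against 9 and 10. At an adjusted p under 0.10, 3200 probes were called, with 17 of the other genes higher and 17 lower, and at 0.01, 795 probes were called, with 3 higher and 3 lower. With 75th percentile scaling 15 of the other genes were higher and 11 lower. With the replicate block, 2920 probes were called, 2 member probes were lower and 0 higher, and 20 of the other genes were higher and 16 lower. The deviations of same-numbered arrays correlated at -0.06, a value that cannot exclude pairing with 2 arrays per genotype. The labels do not tie the numbers to a litter, batch or day, so whether they pair the arrays is unknown. For the shifted counts the cause was not tested, beyond fewer arrays or another threshold. Normexp correction together with 75th percentile scaling, chosen after the data were seen, shifted the median of all probes by 0.16, with 1336 probes higher and 1047 lower in KO (949 and 1111 as reported), and relative to that shift Pck1 read -1.66 and Slc37a4 -1.49. Changes of probes near the background limit, among them those of Ppargc1a and Pklr, could not be read at full size.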
